A study of Homo sapiens with 3 samples.

Results

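The miR-29 family was described here as it was recovered with Argonaute2 (Ago2), the protein that holds a guide miRNA in the RNA-induced silencing complex. Its members on the array were hsa-miR-29a, hsa-miR-29b and hsa-miR-29c, 3 of the 851 human miRNA names measured, taken by their exact names. The RNA came from Ago2 immunoprecipitates of Hep G2 cells, an established human liver cancer line. The study asked which RNAs are bound to Ago2 when miR-195 or miR-497 is raised in these cells. The groups were non-treated cells, cells transfected with 5 nM of a synthetic miR-195 mimic and cells transfected with 5 nM of a synthetic miR-497 mimic, all of the same line and with 24 h as the labelled time. The non-treated cells received no mimic and no control RNA, so the effect of transfection itself and that of a mimic cannot be told apart. An Agilent human miRNA array was used for each immunoprecipitate, with 10 ng of its RNA carrying the Cy3 dye, and the 3 arrays shared 1 slide and 1 scan. Each group thus had 1 array, no difference could be tested between groups, and no p-value is given. The error beside each value is the SD between the spots of a probe, carried through to sums and ratios, and covers technical error within an array only.

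The miR-29 family is known for repressing collagen and other extracellular matrix genes, for its anti-fibrotic role in the liver, and for repressing the DNA methyltransferases DNMT3A and DNMT3B and the survival factor MCL1. A miRNA hairpin gives a guide strand, which Ago2 keeps, and a passenger strand, marked on this array by an asterisk, which is mostly lost. Targets are found mainly through the seed, bases 2 to 8 from the 5′ end of the guide, so members with one seed share most predicted targets.

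The 3 guide strands are printed to show what they share and where the probes had to tell them apart, 5′ to 3′ from RefSeq with the seed in capitals.
hsa-miR-29a: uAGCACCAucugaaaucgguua
hsa-miR-29b: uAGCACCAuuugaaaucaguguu
hsa-miR-29c: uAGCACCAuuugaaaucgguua
All 3 held the seed AGCACCA, and no other of the 2370 human mature miRNA names in the RefSeq table held it at bases 2 to 8. Counted from the 5′ end, hsa-miR-29a and hsa-miR-29c differed only by C10U. From hsa-miR-29a to hsa-miR-29b the differences were C10U, G18A, U21G and A22U, and from hsa-miR-29c to hsa-miR-29b they were G18A, U21G and A22U. hsa-miR-29b had 23 nucleotides against 22 for the other members. Only hsa-miR-29b, 1 of the 3 members, held AGUGUU, a 3′ element known from nuclear import of this miRNA. It was searched on the mature strand as written and stood in 13 of the 2370 mature names (0.549%).

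The guides come from 4 hairpins in 2 pairs, with positions given on GRCh38.p14 from RefSeq. MIR29A (chr7:130876747-130876810) and MIR29B1 (chr7:130877459-130877539) lie on the minus strand with 648 bases between them. MIR29C (chr1:207801852-207801939) and MIR29B2 (chr1:207802443-207802523) lie on the minus strand with 503 bases between them. MIR29B1 and MIR29B2 give the same hsa-miR-29b guide, so its signal cannot be divided between the chromosomes. Their passenger strands do differ, and are printed with the differing bases in capitals because they were the array's only readout that separates the hairpins.
hsa-miR-29b-1*: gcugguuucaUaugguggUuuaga
hsa-miR-29b-2*: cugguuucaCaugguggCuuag
The differences from hsa-miR-29b-2* to hsa-miR-29b-1* were C10U and C18U, counted on hsa-miR-29b-2*, which starts 1 base further into the hairpin.

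The arrays differed in overall brightness. Human miRNAs well above background, meaning that more than 50% of the used spots of at least 1 probe carried the scanner's flag, numbered 168 without a mimic, 153 with miR-195 and 121 with miR-497. The 75th percentile over the 183 probes well above background on all 3 arrays was 826.7, 778.3 and 263.2 intensity units in the same order, and levels were divided by it before differences were taken. Liver markers were partly present: hsa-miR-192, hsa-miR-194 and hsa-miR-215 were well above background on all arrays, while hsa-miR-122, the defining hepatocyte miRNA, was well above background on none, at 3.616, -0.2411 and 5.617 units. The summed liver markers gave 4387, 4933 and 1827 units. Of 4 blood cell markers, hsa-miR-142-3p and hsa-miR-142-5p were well above background on every array and hsa-miR-150 and hsa-miR-223 on none, with sums of 1712, 1426 and 453.9 units. Of 4 stromal markers only hsa-miR-199a-3p was well above background, at 32.84 units on the non-treated array alone.

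All 3 members were well above background on all 3 arrays with both of their probes. hsa-miR-29a gave 2910 ± 185.2 intensity units without a mimic, 2858 ± 228.9 with miR-195 and 1160 ± 68.29 with miR-497 (SD between spots, 1 array each). hsa-miR-29b gave 2352 ± 216.8, 1854 ± 53.21 and 636.4 ± 49.73 units in the same order. hsa-miR-29c gave 578.1 ± 34.19, 652.8 ± 36.59 and 221.3 ± 17.35 units. Before scaling, every member was therefore lowest on the miR-497 array, where the median human miRNA also stood lower than on the non-treated array, by a log2 difference of -1.62. Each array was labelled with 10 ng of RNA, so a signal is not a level per cell. Less miRNA within that RNA, less Ago2-bound miRNA per cell and weaker labelling were not tested as causes.

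**Figure D1:**
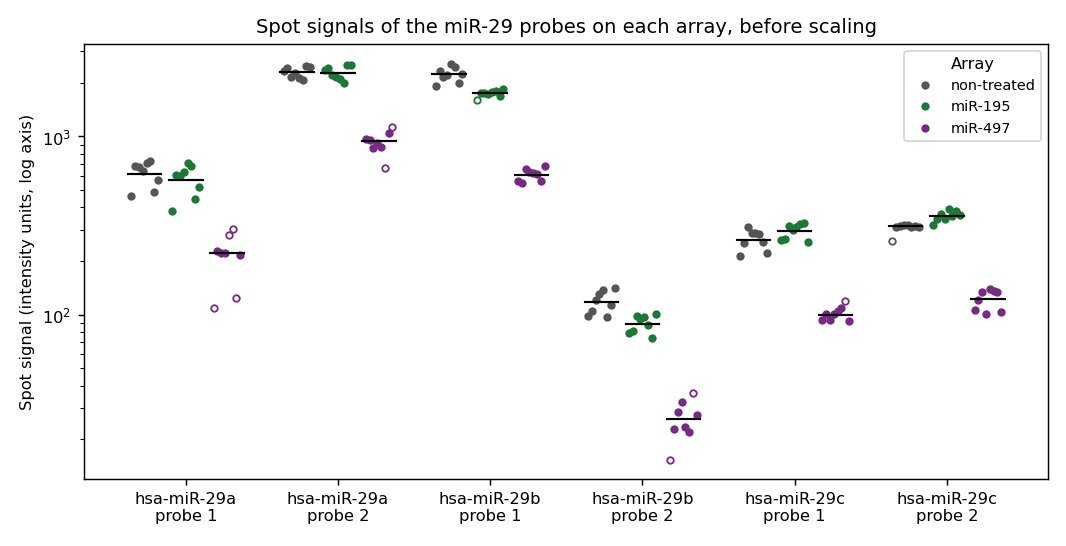
Signal of each spot (intensity units, log axis) for the 2 probes of each member on the non-treated, miR-195 and miR-497 arrays, before scaling; filled points were used, open points carried an outlier flag and were left out, and bars are means. Every probe was dimmest on the miR-497 array, and both probes of hsa-miR-29b had a lower mean on the miR-195 array than on the non-treated array while both probes of hsa-miR-29c had a higher one.

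The spots show the spread of each value within an array. On the brighter hsa-miR-29b probe the 8 non-treated spots ran from 1926 to 2558 units with a median of 2227, the 7 used miR-195 spots from 1691 to 1846 with a median of 1759, and the 8 miR-497 spots from 545.3 to 684.4 with a median of 618.6. The used spots of that probe did not overlap between arrays before scaling. Once divided by the 75th percentile of their own array, they overlapped for every pair of arrays. The separation without any overlap therefore held only without scaling, and the spots of this probe do not fully separate the arrays at the scaled level. The scaled log2 differences of its means from the non-treated array were -0.25 (spot SD 0.15) for miR-195 and -0.22 (spot SD 0.18) for miR-497. Between the miR-497 and miR-195 arrays the difference was 0.03 (spot SD 0.12). On its dimmer probe the ranges were 97.01 to 140.7, 74.53 to 101.6 and 22.08 to 32.54 units, and the non-treated and miR-195 spots overlapped. On the brighter hsa-miR-29a probe the non-treated spots, at 2083 to 2480 units, and the miR-195 spots, at 1997 to 2520, covered nearly the same range. The other hsa-miR-29a probe ran from 460.7 to 731.7 units on the non-treated array and from 380.2 to 710.9 on the miR-195 array. For hsa-miR-29c the used spots of the brighter probe ran from 309.4 to 317.5 units on the non-treated array and from 319.1 to 390.1 on the miR-195 array, without overlap. The narrow non-treated range leaves out a flagged spot at 258.6 units, below the others. The dimmer probe ran from 214.9 to 310.3 and from 254.4 to 326, with overlap. On the miR-497 array 9 of the 48 member spots were flagged as outliers and left out, 4 of them on the dimmer hsa-miR-29a probe, against 1 on each of the other arrays. The spot SD of that probe on the miR-497 array, 5.118 units, rests on the 4 spots that remained. Those left out were spots 1, 5, 6 and 7, its lowest and highest.

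hsa-miR-29b held a smaller part of the family on both arrays of mimic-transfected cells than on the non-treated array. hsa-miR-29a held 49.82 ± 2.457% of the summed family signal without a mimic, 53.28 ± 2.094% with miR-195 and 57.49 ± 2.079% with miR-497. hsa-miR-29b held 40.28 ± 2.57%, 34.55 ± 1.628% and 31.54 ± 2.015%. hsa-miR-29c held 9.898 ± 0.7154%, 12.17 ± 0.8019% and 10.97 ± 0.8927%. The non-treated array thus had the highest share of hsa-miR-29b and the lowest shares of both other members, though for hsa-miR-29c the miR-497 array did not differ from it beyond the spot SDs of both arrays combined. Probes differ in how well they bind, so these are shares of signal and not of molecules, while a change of a share between arrays is read within the same probes. Whether a member also bound the probes of another was not tested.

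**Figure D2:**
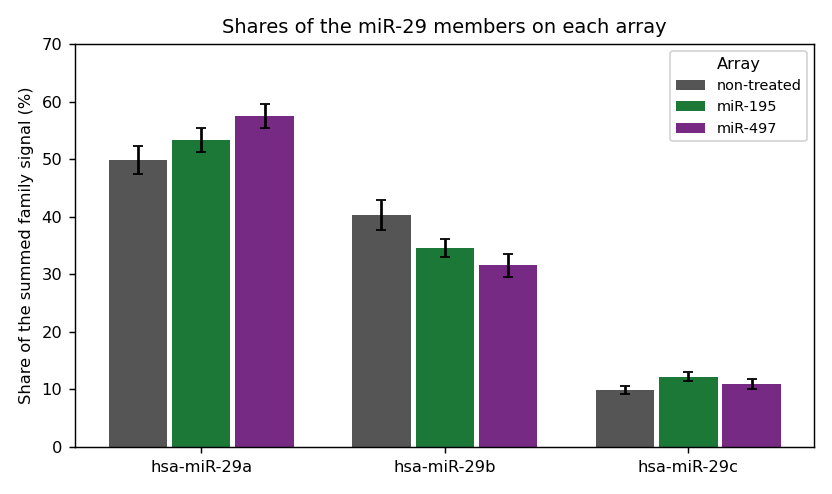
Share of each member in the summed family signal (%) on each array; bars are shares and error bars the spot SD, with 1 array per group. hsa-miR-29b stands at 40.28% on the non-treated array against 34.55% and 31.54% on the others, and hsa-miR-29a at 49.82% against 53.28% and 57.49%.

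Ratios within an array need no scaling and describe the same difference. The signal ratio of hsa-miR-29b to hsa-miR-29a was 0.8084 without a mimic, 0.6485 with miR-195 and 0.5486 with miR-497. Its log2 change from the non-treated array was -0.32 (spot SD 0.20) on the miR-195 array and -0.56 (spot SD 0.21) on the miR-497 array. The ratio of hsa-miR-29b to hsa-miR-29c was 4.069, 2.84 and 2.875, a log2 change of -0.52 (spot SD 0.18) and -0.50 (spot SD 0.22). These 4 changes were each larger than 1 spot SD, and they share the non-treated array, so a deviation of that array alone would enter all of them. Between the arrays of mimic-transfected cells, the log2 change from miR-195 to miR-497 was -0.24 (spot SD 0.19) for hsa-miR-29b to hsa-miR-29a, 0.02 (spot SD 0.18) for hsa-miR-29b to hsa-miR-29c and -0.26 (spot SD 0.20) for hsa-miR-29c to hsa-miR-29a. The ratio of hsa-miR-29c to hsa-miR-29a was 0.1987, 0.2284 and 0.1908, with log2 changes of 0.20 (spot SD 0.19) and -0.06 (spot SD 0.19) from the non-treated array.

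After scaling, no member differed by as much as 2-fold in any comparison. On the miR-195 array hsa-miR-29b was lower than on the non-treated array by a log2 difference of -0.26 (spot SD 0.14), hsa-miR-29c higher by 0.26 (spot SD 0.12), and hsa-miR-29a differed by 0.06 (spot SD 0.15), which is within its spot SD. The sign for hsa-miR-29b turned only with scaling on the controls dmr_285 and dmr_31a, taken as spike-ins (0.09), that for hsa-miR-29c only with the 75th percentile over all probes (-0.28), and that for hsa-miR-29a under 6 of 14 alternatives. The family sum differed by -0.04 (spot SD 0.10). Of 147 human miRNAs measured on both arrays, without the transfected ones and their passenger strands, 5 differed by at least 2-fold (3.40%), and the count among members was 0 of 3. The median over those human miRNAs was -0.01 and their SD 0.37, so every member lay within 1 SD of the median. hsa-miR-29b stood at percentile 17.7, hsa-miR-29a at 57.1 and hsa-miR-29c at 82.3 of it.

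On the miR-497 array the scaled log2 difference from the non-treated array was 0.32 (spot SD 0.13) for hsa-miR-29a, -0.24 (spot SD 0.17) for hsa-miR-29b and 0.27 (spot SD 0.14) for hsa-miR-29c. All 3 exceeded their spot SD. The family sum, at 0.12 (spot SD 0.09), joined opposite directions of its members, and its own sign turned under 6 of 12 alternatives (-1.53 to 0.22). At least 2-fold differences were seen for 4 of 118 human miRNAs (3.39%) and 0 of 3 members, over a median of 0.03 and an SD of 0.41. The members' percentiles were 84.7, 16.1 and 78. Without scaling the differences were -1.33, -1.89 and -1.39, lower for every member, and the sign for hsa-miR-29a and hsa-miR-29c therefore rests on the scaling. hsa-miR-29b was lower under all 14 alternatives (-1.89 to -0.13), but under some of them the median human miRNA was lower too. That median stood at -1.62 without scaling, -1.36 with the 75th percentile over all probes and -1.10 with spike-in scaling. A lower sign under these settings is not particular to hsa-miR-29b.

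Between the miR-497 and the miR-195 array the scaled log2 difference was 0.26 (spot SD 0.14) for hsa-miR-29a, at percentile 84.6. It was 0.02 (spot SD 0.12) for hsa-miR-29b and 0.00 (spot SD 0.14) for hsa-miR-29c, both within their spot SD. At least 2-fold differences were seen for 2 of 117 human miRNAs (1.71%) and 0 of 3 members. By scaled level, log2 over the 75th percentile, hsa-miR-29a ran from 1.82 on the non-treated array through 1.88 on the miR-195 array to 2.14 on the miR-497 array, and the first pair did not differ beyond the spot SD. hsa-miR-29b stood at 1.51 on the non-treated array, above 1.25 and 1.27 on the miR-195 and miR-497 arrays, which did not differ beyond it. hsa-miR-29c stood at -0.52 on the non-treated array, below -0.25 on both other arrays. The differences of the miR-497 array from the miR-195 array were negative for every member without scaling, at -1.30, -1.54 and -1.56 in the order of the names.

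**Figure D3:**
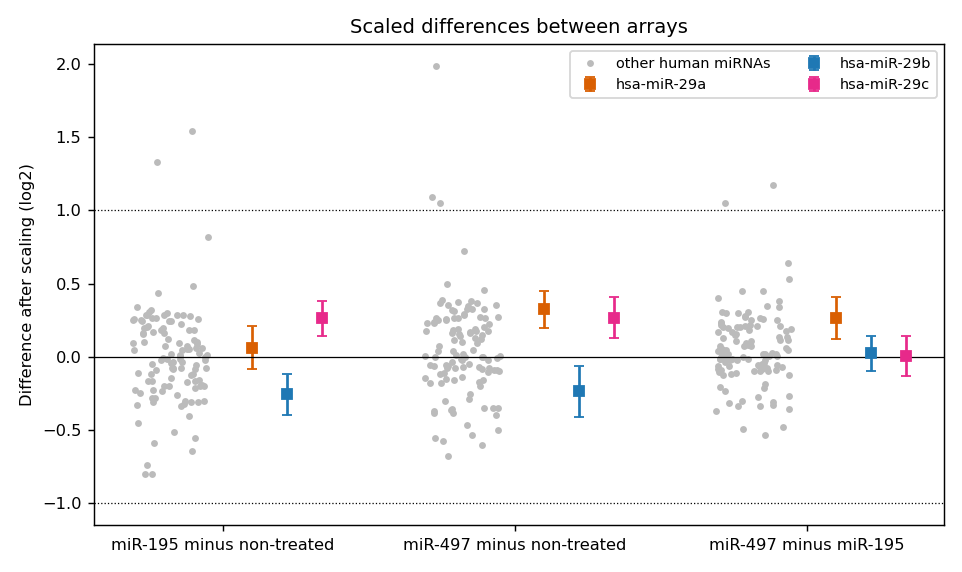
Scaled log2 difference of each member (squares, error bars are the spot SD) in the 3 comparisons between arrays, beside the other human miRNAs well above background on all 3 arrays (grey points); dotted lines mark 2-fold. hsa-miR-29b lies below 0 and hsa-miR-29c above 0 in both comparisons with the non-treated array, with this scaling, and all members lie inside the 2-fold lines; without scaling all 3 members lie below 0 on the miR-497 array.

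The probes of a member were compared as a check within each array, since they are assigned to the same miRNA. Probe sequences were not available, and hsa-miR-29a and hsa-miR-29c differ only by C10U. Whether a probe also bound another member was not tested, and agreement of probes does not show that it did not. Both hsa-miR-29b probes were lower on the miR-195 array than on the non-treated array, by scaled log2 differences of -0.25 (spot SD 0.15) and -0.31 (spot SD 0.26), and on the miR-497 array by -0.22 (spot SD 0.18) and -0.52 (spot SD 0.30). Both hsa-miR-29c probes were higher, by 0.24 (spot SD 0.23) and 0.28 (spot SD 0.09) on the miR-195 array and by 0.24 (spot SD 0.21) and 0.29 (spot SD 0.19) on the miR-497 array. The hsa-miR-29a probes gave -0.02 (spot SD 0.37) and 0.08 (spot SD 0.16) on the miR-195 array and 0.17 (spot SD 0.24) and 0.36 (spot SD 0.14) on the miR-497 array. Probes of hsa-miR-29b and hsa-miR-29c thus shared a direction against the non-treated array, while those of hsa-miR-29a differed in sign on the miR-195 array, within their spot SD.

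The array also carried controls that bear on the scaling. The name of one of them, dmr_285, matches Drosophila miR-285, which is known to share the miR-29 seed. It gave 4285 ± 316.1 units without a mimic, 3394 ± 66.78 with miR-195 and 3045 ± 343.5 with miR-497, unscaled log2 differences from the non-treated array of -0.34 and -0.49. Another control, dmr_31a, gave 849.7, 586.6 and 577.4 units, differences of -0.53 and -0.56, so the lower signal was not particular to dmr_285. Spike-in scaling used the mean log2 of both controls, taken as labelling spike-ins by their names alone, and whether either binds the member probes was not tested. Negative control spots averaged 3.156, 2.552 and 3.055 units, below every member probe.

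The family as a whole held a small share of the Ago2-bound signal. Its sum was 5841 ± 287.2 units without a mimic, 5365 ± 237.9 with miR-195 and 2018 ± 86.24 with miR-497. That was 2.447 ± 0.1203%, 2.04 ± 0.09044% and 1.892 ± 0.08086% of the signal of all human miRNAs well above background. The transfected miRNAs and their passenger strands held 0.01898%, 18.59% and 7.694% of that signal. With them left out of the total, the family share was 2.448% without a mimic, 2.506% with miR-195 and 2.049% with miR-497. The lower share on the miR-195 array was thus present only with the mimic in the total, whereas the share on the miR-497 array was lower either way. A share also depends on the total, so a lower share is not a lower family level. The scaled family sum on the miR-497 array was higher than on the non-treated array, by a log2 difference of 0.12 (spot SD 0.09). Share and scaled level thus differed in direction there, and the sign of the latter rests on the scaling.

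Passenger strands were mostly at background. None of the probes of hsa-miR-29a*, hsa-miR-29b-2* and hsa-miR-29c* was well above background on any array, with highest probe means of 7.292, -1.679 and 14.05 units. hsa-miR-29b-1*, the passenger of the MIR29B1 hairpin, was well above background on every array, through 3 of its 4 probes in non-treated and miR-195 cells and through 1 with miR-497. It gave 251.1 ± 8.77 units without a mimic, 156.9 ± 12.81 with miR-195 and 76.83 ± 3.793 with miR-497. Its scaled log2 difference from the non-treated array was -0.59 (spot SD 0.13) on the miR-195 array, at percentile 3.4 of the human miRNAs, and -0.06 (spot SD 0.09) on the miR-497 array, at percentile 36.4. The miR-497 array was higher than the miR-195 array by 0.53 (spot SD 0.14), at percentile 96.6. Without scaling hsa-miR-29b-1* was lower there, by -1.03, so that sign rests on the scaling. Its brightest probe, the one above background throughout, gave 151.9, 98.16 and 51.7 units and scaled differences of -0.54 (spot SD 0.12), 0.10 (spot SD 0.04) and 0.64 (spot SD 0.12). Without scaling these differences were -0.63, -1.56 and -0.93. Guide and passenger thus stood at -0.26 and -0.59 on the miR-195 array and at -0.24 and -0.06 on the miR-497 array, and the difference between guide and passenger was not tested. As a percentage of the hsa-miR-29b signal, the passenger gave 10.67 ± 1.05, 8.465 ± 0.73 and 12.07 ± 1.12. The passenger sum on the miR-497 array, behind both -0.06 and 12.07, includes probes not well above background there, at -2.139, 12.49 and 14.78 units. The brightest probe had the other sign, 0.10, and its spot SD there rests on 3 used spots.

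The deposited log2 values of 2 of the 4 passenger strands, hsa-miR-29b-1* and hsa-miR-29c*, carried guide signal. The totals of hsa-miR-29a* and hsa-miR-29b-2* were 0.1 on all 3 arrays, the value of undetected miRNAs. The scanner software's total for hsa-miR-29b-1* was 1286.19 units without a mimic, 993.637 with miR-195 and 358.844 with miR-497. The totals for hsa-miR-29b were 1221.78, 953.834 and 337.881. Each passenger total equalled the hsa-miR-29b total plus 64.4081, 39.8035 and 20.9627 units from its own significant probes, to within 0.0019 units, so 94.99%, 95.99% and 94.16% of it was the guide's. For hsa-miR-29c* the totals of 305.874 and 343.134 units on the non-treated and miR-195 arrays were in the same way 98.16% and 97.89% those of hsa-miR-29c. On the miR-497 array the total of hsa-miR-29c* was 0.1 as well. The deposited values of hsa-miR-29c* were therefore 8.26, 8.42 and 0 on the log2 scale, a difference of -8.26 on the miR-497 array for a strand whose own probes were not well above background anywhere. Those of hsa-miR-29b-1* were 10.33, 9.96 and 8.49, next to 10.25, 9.90 and 8.40 for hsa-miR-29b. Totals of the 3 members came from their own probes only.

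**Figure D4:**
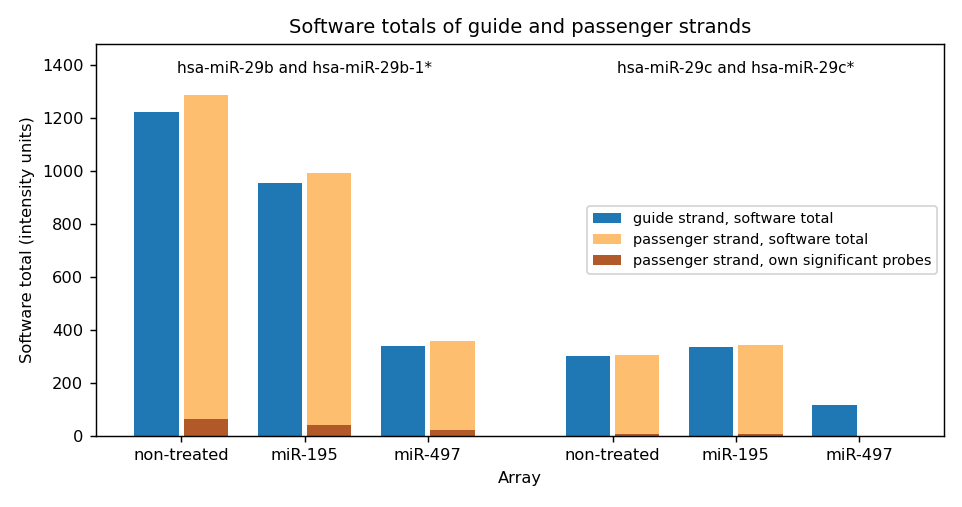
Scanner software totals (intensity units) of hsa-miR-29b with hsa-miR-29b-1* and of hsa-miR-29c with hsa-miR-29c* on each array; the brown base of each passenger bar is the part from its own significant probes. The passenger totals of 1286.19, 993.637 and 358.844 units for hsa-miR-29b-1* lie just above the guide totals, and hsa-miR-29c* has no visible bar on the miR-497 array, where its total was 0.1.

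Other human miRNAs with values like those of the family were named by their distance over the scaled log2 differences of the miR-195 and miR-497 arrays from the shared non-treated array, among 114 miRNAs measured on all arrays. Nearest to the family sum were hsa-let-7g at a distance of 0.05 (differences of -0.09 and 0.13), hsa-miR-33a at 0.06 (-0.04 and 0.17) and hsa-let-7a at 0.06 (0.02 and 0.09). Nearest to hsa-miR-29a was hsa-miR-550* (0.05 and 0.28), to hsa-miR-29b hsa-miR-455-3p (-0.24 and -0.25), and to hsa-miR-29c hsa-miR-320d (0.28 and 0.26). These neighbours lay at distances of 0.0429, 0.0262 and 0.0196.

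The same measures were taken for other miRNA families. The let-7 family, known as a repressor of growth genes, summed to 4554, 4196 and 1489 units. Each sum covers only the members well above background on that array, 8, 7 and 6 of 9, so the sums are not over the same members. Its measured members had median scaled log2 differences against non-treated cells of -0.09 with miR-195 (7 of 9 members, -0.30 to 0.28) and 0.07 with miR-497 (6 of 9, -0.37 to 0.15). The miR-30 family summed to 978.4, 964.1 and 290.9 units, with 4 of 5 members measured and medians of 0.04 and -0.10. hsa-miR-148a, hsa-miR-148b and hsa-miR-152 are known to repress DNMT1, the maintenance methyltransferase. hsa-miR-148a gave 72.47 and 75.49 units on the non-treated and miR-195 arrays, while the miR-497 array did not show it well above background. hsa-miR-148b gave 92.79, 82.98 and 28.43 units, and hsa-miR-152 was well above background on no array. Of these lists 0 measured members differed by 2-fold in any comparison, as for miR-29. Over all human miRNAs measured, the share was 3.40% for miR-195 minus non-treated and 3.39% for miR-497 minus non-treated. It was 1.71% for miR-497 minus miR-195. With shares this low, a count of 0 in such short lists does not set these families apart from other human miRNAs.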

How the data were processed

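The deposited scanner files hold spot intensity on a linear scale, which per the file headers the authors obtained with Agilent Feature Extraction 10.7.1.1, background subtracted and not scaled between arrays. The authors also deposited a table of log2 values, which matched log2 software totals, after totals under 1 were set to 1, to within 1.1e-06. The methods state that samples were analysed in duplicate. 1 array per group was analysed here, and further arrays were not analysed here. Groups came from the labels.

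Control spots were left out, as were those flagged as population outliers or as non-uniform. The background-subtracted signal was averaged per probe, summed per miRNA, divided by the 75th percentile over shared detected probes and converted to log2. No spot was saturated. Members were kept whatever their values, as were the 4 passenger strands; neighbours were the 3 miRNAs nearest the family sum and the one nearest each member. Members and lists were chosen with earlier results of these data known. The computation was tested on simulated data, with set changes of more than 2-fold and a single brightness factor for each array. That test does not bear on smaller differences, such as those of the members, or on the choice of scaling. Alternatives were other scalings, summaries, spot rules and normexp background correction with offset 50 in limma 3.58.1 (R 4.3.3). Other steps used numpy 2.4.6 and pandas 2.3.3. The file headers name hg19, while sequences and positions are RefSeq's on GRCh38.p14, with asterisk names matched to the 5p strands and member names to the 3p strands. The number of arrays limits the precision.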

Additional observations from a re-analysis of the deposited data

How the results depend on the processing

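Of 104 recomputed family sums, family shares, member ratios and counts, 70 stayed within 1 spot SD or 1.5 times the count and 34 moved; of 189 values of single members 133 stayed and 56 moved. The lower part of hsa-miR-29b within the family held in sign under all 8 alternatives for each ratio to the non-treated array, from -0.34 to -0.28 (miR-195) and -0.58 to -0.47 (miR-497) against hsa-miR-29a, and from -0.62 to -0.47 and -0.65 to -0.50 against hsa-miR-29c. Of these, software totals per miRNA, software probe totals and the deposited table repeated the main value of every ratio. They therefore add no separate check. Scaled differences depended on the scaling, which moved the median of all human miRNAs too, by -1.65 without scaling on the miR-497 array. A value relative to that median cannot change when an array is divided by a single factor, so of the scalings only quantile normalization could move it. Values relative to the median were not computed for the other summaries, spot rules or normexp. Against the non-treated array, in the order miR-195 and miR-497, hsa-miR-29b stood at -0.25 and -0.26 from the median and at -0.29 and -0.26 after quantile normalization, hsa-miR-29c at 0.27 and 0.24 and then at 0.33 and 0.29, and hsa-miR-29a at 0.07 and 0.30 and then at -0.0039 and 0.22.

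In the order miR-195 minus non-treated, miR-497 minus non-treated and miR-497 minus miR-195, the family sum differed by -0.57, -1.27 and -0.69 with the 75th percentile over all probes, by 0.31, -1.01 and -1.32 with spike-in scaling (dmr_285 and dmr_31a) and by -0.14, -1.50 and -1.37 in the deposited table. For the last pair of comparisons it gave -1.53 and -1.41 without scaling, 0.22 and 0.27 with median scaling and -0.18 and -0.0523 with software totals per miRNA; for the first pair it gave -0.27 and -0.0699 after quantile normalization. Human miRNAs at least 2-fold different numbered 10, 111 and 17 with the percentile over all probes, and 113 and 114 without scaling for the last pair. The family share of the human signal on the non-treated, miR-195 and miR-497 arrays was 1.94%, 1.76% and 1.24% both with software totals and in the deposited table, and 2.76%, 2.35% and 2.00% from the brightest probe of each miRNA. It was 2.14% on the miR-195 array with software probe totals, and 2.51% and 2.05% on the miR-195 and miR-497 arrays without the transfected miRNAs. The cause of these moves was not tested. No replicate could be left out and no paired analysis was possible because each group had 1 array. Signals near background, on the miR-497 array in particular, limit what can be said of passenger strands.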
